A study of Homo sapiens with 6 samples.

Results

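The kallikrein-related peptidases KLK5, KLK6, KLK7, KLK8, KLK9, KLK10 and KLK11 are secreted serine proteases whose genes lie side by side on the long arm of chromosome 19. They were taken by symbol from a gene-level table of RNA levels, in which the 7 genes occupied 6 of 18268 rows, because KLK8 and KLK9 share the joined row KLK8;KLK9. The genes had been proposed from the comparison described here, knockout against vector control, that is, they were selected on their FPKM in the 3 KO against the 3 vector control columns, so these values are a description and carry no test. The samples were 3 libraries of total RNA from cells of the human pancreatic cancer line MIA PaCa-2, labelled epithelial, with the genotype LINC00901 KO (a knockout of a long non-coding RNA gene, KO 1 to KO 3), and 3 from cells of the same line labelled Vector Control (LCV2 in the sample titles, vector control 1 to 3). All 6 were grown in the same medium. The labels do not say whether the knockout cells were 1 clone or a pool, nor whether the libraries came from separate cultures, so p-values measure only how far these samples spread, and that spread may be technical. LINC00901 itself was not analysed here, since 0 rows named it, and the direction of each difference rests on the labels.

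Tissue kallikreins are made as inactive precursors, secreted, and switched on when another protease clips off a short propeptide. In the outer layer of skin they act in a cascade: KLK5, with trypsin-like specificity, can activate itself and KLK7, and both cut the adhesion proteins that hold dead cells together, under the control of the inhibitor LEKTI, the product of SPINK5. Outside the skin, trypsin-like members can cut protease-activated receptors on the cell surface, chiefly PAR2. KLK6 is abundant in the central nervous system, KLK8 (neuropsin) is best known from the hippocampus and skin, and KLK10 was first described as a gene of normal epithelial cells that is reduced in breast cancer lines.

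The regions before the start sites show where the members with the clearest RNA levels begin, and are given because neighbouring members differ in their promoter letters. RefSeq on GRCh38.p14 had windows for 6 of the 7 members (10 windows, since KLK7, KLK10 and KLK11 have alternative starts), and KLK8 had none. The 250 bases before the start are printed 5′ to 3′ on the minus strand, the strand of the genes, for the 4 members that passed the filter on low values in a row of their own. For KLK7 and KLK10 it is the window listed first. Capitals mark the letters TATAA (the core of a TATA box), CCGCCC (a GC box) and GGAATG (a TEAD site), on either strand. The windows are chr19:50953039-50953288 for KLK5, chr19:50969592-50969841 for KLK6, chr19:50983918-50984167 for KLK7 and chr19:51019862-51020111 for KLK10.
KLK5: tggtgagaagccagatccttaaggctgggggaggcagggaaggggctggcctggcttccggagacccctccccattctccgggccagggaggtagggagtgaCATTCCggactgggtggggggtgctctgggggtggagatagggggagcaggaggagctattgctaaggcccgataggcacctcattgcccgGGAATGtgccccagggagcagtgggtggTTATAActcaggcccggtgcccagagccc
KLK6: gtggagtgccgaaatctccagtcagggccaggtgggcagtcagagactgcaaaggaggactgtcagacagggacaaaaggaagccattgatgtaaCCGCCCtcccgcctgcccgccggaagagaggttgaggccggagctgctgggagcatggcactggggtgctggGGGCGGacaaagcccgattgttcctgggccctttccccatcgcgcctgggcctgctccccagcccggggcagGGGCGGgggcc
KLK7: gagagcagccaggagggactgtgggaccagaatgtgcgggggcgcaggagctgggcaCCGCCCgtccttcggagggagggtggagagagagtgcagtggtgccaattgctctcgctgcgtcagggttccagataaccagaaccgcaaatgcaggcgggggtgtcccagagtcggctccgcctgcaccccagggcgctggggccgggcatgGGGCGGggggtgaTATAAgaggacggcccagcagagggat
KLK10: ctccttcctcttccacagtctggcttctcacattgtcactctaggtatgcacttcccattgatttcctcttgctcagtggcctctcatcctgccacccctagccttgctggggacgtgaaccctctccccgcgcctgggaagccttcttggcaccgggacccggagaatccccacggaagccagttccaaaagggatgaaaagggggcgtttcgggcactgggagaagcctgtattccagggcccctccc

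In the printed windows KLK5 and KLK7 have a TATAA core close before the start, whose first base on the gene strand lies 28 bases upstream in KLK5 and 27 in KLK7. Of the 3 windows of KLK7, another holds the same TATAA, there 129 bases upstream of its own start, and the last has none. Which start these cells use was not measured. In KLK5 the letters TTATAA hold the core on both strands, so its 2 matches overlap. The printed KLK6 window holds no TATAA and 3 GC boxes, and the printed KLK10 window holds none of the 3 motifs. GGAATG was found in KLK5 only among the members, at 2 places. Over all 35116 windows of the same length, TATAA was present in 18.9%, CCGCCC in 42.6% and GGAATG in 11.9%. They were present in 3, 6 and 1 of the 10 member windows, some of which overlap and hold the same site. Of 6 further motifs searched on both strands, CAGGTG (an E-box that SNAI2 can bind) was found in 3 of the 10 member windows, of KLK6, KLK7 and KLK11, and in 17.5% of all windows. The other 5 were in 0 of the 10 windows: TGANTCA (AP-1, in 6.57% of all windows), CACGTG (the MYC E-box, 6.34%), AACNGGTT (GRHL, 1.49%), AGAACA (an androgen and glucocorticoid receptor hexamer, 12.4%) and AGGTCA (a retinoid receptor hexamer, 12.1%). These are letters in a window, not measured sites.

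Levels were given by the authors as FPKM, fragments scaled to transcript length and library size. Library sums of FPKM ran from 123107 to 134389, and 9153 to 9612 rows per library reached 1 FPKM. The read depth behind the values is unknown. Vector control 1 stood apart from its group: over the tested rows it correlated at r = 0.904 and 0.906 with the other vector controls but at 0.932 with KO 3, whereas vector control 2 and 3 correlated at 0.979. KO 1 correlated at 0.933 and 0.935 with KO 2 and KO 3, which correlated at 0.97 with each other. With vector control 2 and 3 KO 1 correlated at 0.92 and 0.921, and KO 2 and KO 3 at 0.894 to 0.897. The epithelial label had partial marker support. Of 9 epithelial markers, KRT18 stood at 28.78 to 79.42 FPKM over the 6 libraries, KRT19 at 12.69 to 39.34 and CLDN4 at 0.54 to 42.72. The joined rows of KRT8 and CLDN7 stood at 7.23 to 19.76 and 17.14 to 30.19. CDH1 (E-cadherin) reached at most 0.02, EPCAM 0.14, KRT7 0.11 and ESRP1 0.07. Of 8 mesenchymal markers, the filament gene VIM stood at 459.52 to 674.80, COL3A1 at 16.46 to 62.02, COL1A2 at 24.72 to 56.18 and COL1A1 at 0.96 to 3.95. CDH2 reached at most 0.06, PDGFRB 0.07 and LUM 0.17, and DCN was at 0.

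KLK6 was the most abundant member in every library. It stood at 53.17, 85.77 and 97.97 FPKM in vector controls 1 to 3 and at 244.25, 261.25 and 287.45 in KO 1 to 3. The lowest knockout library lay well above the highest control, and vector control 1 was the lowest of the 6. The ratio of the group means was 3.35, and the ratios between single libraries ran from 2.49 to 5.41. Among all 18268 rows KLK6 ranked 401st, 212th and 193rd by level in the vector controls, and 38th, 39th and 30th in the KO libraries, so its RNA was among the most abundant in the knockout cells. On the log2(FPKM + 1) scale, which understates changes of low genes, the difference was 1.77 (SE 0.24).

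KLK5, the initiating protease of the skin cascade, stood at 12.81, 11.45 and 17.15 FPKM in the controls, against 51.83, 85.80 and 78.05 in the knockout. KO 1 was the lowest of its group and still 3.02 times the highest control. The ratio of means was 5.21, the highest of the rows, with single-library ratios from 3.02 to 7.49 and a log2 difference of 2.29 (SE 0.24). KLK5 ranked between 1433 and 2174 in the vector controls and between 200 and 328 in the KO libraries. Of the 9624 rows tested in the whole table, 4 had a log2 fold change at or above that of KLK5, KLK5 included.

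KLK7, the chymotrypsin-like partner of KLK5, stood at 1.91, 3.82 and 3.40 FPKM in the controls, against 14.11, 13.87 and 12.55 in the knockout. The 3 knockout values were close together, at 13.5 ± 0.840 FPKM (SD, n = 3), against 3.04 ± 1.0 in the controls (n = 3). KO 1, the lowest knockout library for KLK5 and KLK6, was the highest for KLK7. The ratio of means was 4.44 and the log2 difference 1.87 (SE 0.22).

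The joined row of KLK8 and KLK9 was low, at 0.58, 0.89 and 1.18 FPKM in the controls, against 4.52, 4.72 and 3.03 in the knockout. The groups did not overlap, and the ratio of means was 4.63 (log2 difference 1.43, SE 0.20). Which of the pair the fragments came from cannot be told apart in a joined row. KLK10 stood at 0.59, 0.40 and 0.86 FPKM in the controls, against 2.77, 1.48 and 1.84 in the knockout. Its ratio of means was 3.29, the lowest of the 5 rows named so far, with single-library ratios from 1.72 to 6.93 and a log2 difference of 0.89 (SE 0.20). KLK11, the last of the 7 genes along the cluster, was close to 0 everywhere: 0.03, 0 and 0 in the controls, against 0.24, 0 and 0.14 in the knockout.

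**Figure D1:**
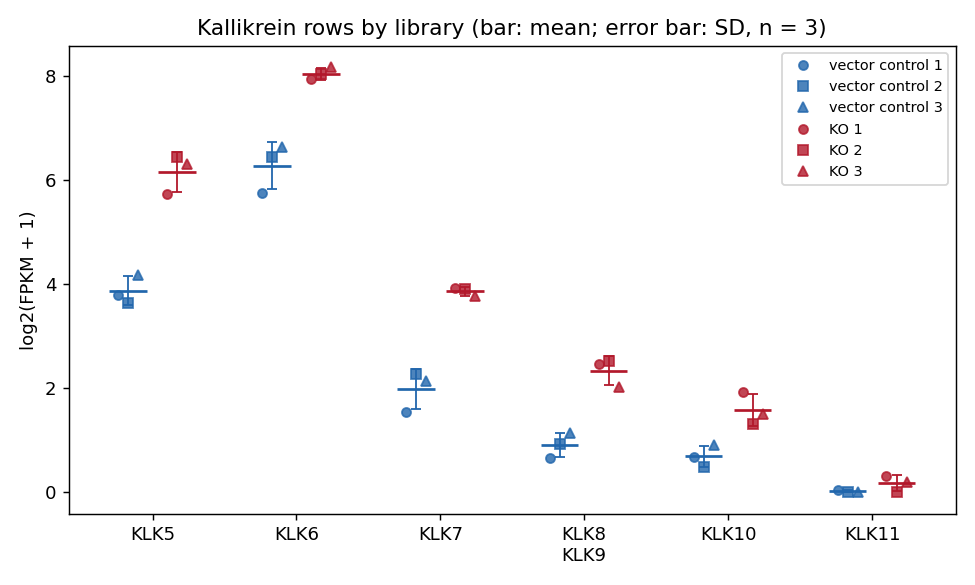
Level of each kallikrein row on the log2(FPKM + 1) scale (vertical axis) in the 3 vector control (blue) and 3 KO (red) libraries, with the group mean and SD. In KLK5, KLK6, KLK7, the joined KLK8 and KLK9 row and KLK10 every red point lies above every blue point, and KLK11 lies near 0 in both groups.

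A row entered the fit over all genes when at least 3 of the 6 libraries reached 1 FPKM, which 5 of the 6 kallikrein rows did. KLK5, KLK6 and KLK7 reached it in every library. The joined row did so in 1 vector control and the 3 KO libraries, and KLK10 in the KO libraries alone. KLK10 thus entered through the group in which it was high and had to differ. The joined row entered mainly through that group, which favoured a difference without fixing it. The limma fit (adjusted p below 0.05 over all 9624 rows) called 4 of the kallikrein rows, against 1.35% of all rows tested, and KLK10 was not called. All 4 were higher in the KO libraries, a direction in which 0.509% of all rows were called. In 5 kallikrein rows the knockout libraries lay above the controls without overlap, as they did in 15.4% of all rows. In the other direction 0.842% of all rows were called and 8.35% did not overlap. Because the genes were proposed from this contrast, nothing is read from these counts. Over all rows 49 were called higher and 81 lower, a split that became 31 and 99 with quantile normalization and 29 and 81 with median scaling. An unadjusted p below 0.05 was reached by 1685 of the 9624 rows. The counts of such p given below for gene lists stand beside that number.

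The median log2 fold change of the 5 rows was 1.77, beside 0.08 over all tested rows. Without vector control 1 it was 1.51, and KLK6 went from 1.77 to 1.51, KLK7 from 1.87 to 1.65 and KLK5 from 2.29 to 2.25. The calls depended on single libraries, as they did over the whole table: 0 of the 5 rows were called by limma without KO 2 and 0 without KO 3. Over all 9624 rows the calls went from 130 to 29 and 25 in these fits. An unadjusted p below 0.05 was reached by 5 of them in each case, and by 1062 and 1060 of all 9624 rows. Since the genes were chosen from this contrast, nothing is read from that count. There were 2 calls when KO 1 was left out, 2 when vector control 2, 3 when vector control 3 and 4 when vector control 1 was. Over all rows the calls were 121, 39, 39 and 1329 in the same order.

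**Figure D2:**
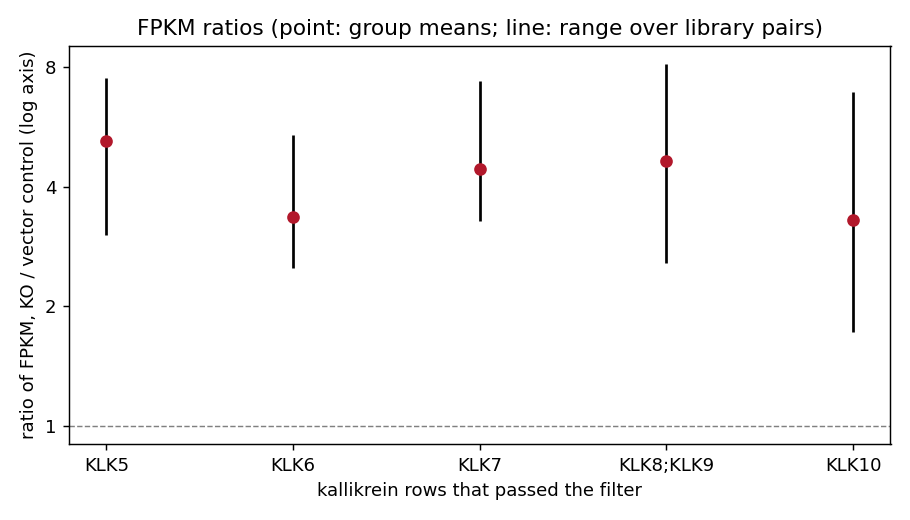
Ratio of FPKM in KO over vector control libraries (log axis) for the 5 kallikrein rows that passed the filter, as the ratio of group means (point) and the range over the 9 pairs of single libraries (line). The lines lie above 1 in all 5 rows, from 1.72 for KLK10 at the lowest to 8.14 for the joined KLK8 and KLK9 row at the highest, and they overlap each other.

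Since FPKM is scaled to transcript length, the members can be set in order. In the vector controls the order was KLK6, KLK5, KLK7, the joined row, KLK10 and KLK11. The ranges of KLK6 (53.17 to 97.97 FPKM), KLK5 (11.45 to 17.15) and KLK7 (1.91 to 3.82) did not touch. Those of the joined row (0.58 to 1.18) and KLK10 (0.40 to 0.86) overlapped, so this pair was not separated beyond the spread. In the KO libraries the order was the same and the joined row (3.03 to 4.72) lay above KLK10 (1.48 to 2.77).

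The proportions between members separated the groups less than the levels did. KLK6 was 4.15, 7.49 and 5.71 times KLK5 in the controls, against 4.71, 3.04 and 3.68 times in the knockout, and these ranges overlap. KLK5 was 6.71, 3.0 and 5.04 times KLK7 in the controls, against 3.67, 6.19 and 6.22 times in the knockout, which overlap as well. KLK7 was 2.88 to 4.29 times the joined row in the controls, against 2.94 to 4.14 times in the knockout. The 6 rows together summed to 97.3 ± 26.1 FPKM in the controls, against 356 ± 34.1 in the KO libraries (SD, n = 3 per group). That was 0.0516%, 0.0787% and 0.0897% of all FPKM in vector controls 1 to 3, and 0.258%, 0.282% and 0.297% in KO 1 to 3. KLK6 made up 77.0%, 83.8% and 81.3% of the kallikrein sum in the controls, against 76.9%, 71.2% and 75.0% in the knockout.

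Among the other 8 tissue kallikreins none passed the filter. KLK1, KLK2, KLK3, KLK4 and KLK15, which include the prostate-specific antigen gene KLK3, were listed at 0 in all 6 libraries. KLK12 reached at most 0.03 FPKM, KLK13 0.15 and KLK14 0.14. In gene order along the chromosome (GENCODE 29), KLK1, KLK15, KLK3, KLK2 and KLK4 come first, KLK5 to KLK11 follow in number order, and KLK12 to KLK14 come last. The measured RNA therefore came from within a run of neighbours, KLK5 to KLK10, with genes at or near 0 on each side. Whether both KLK8 and KLK9 contributed cannot be told from their joined row. In these bulk samples more cells with kallikrein RNA and more of it per cell cannot be told apart.

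The nearest genes outside the kallikreins that passed the filter were C19orf48 on the KLK1 side and CTU1, a tRNA-modifying enzyme gene, on the KLK14 side. C19orf48 stood at 7.75, 3.50 and 8.97 FPKM in the controls, against 3.93, 10.00 and 8.0 in the knockout (log2 difference 0.10, SE 0.39). CTU1 stood at 0.75, 3.07 and 2.85 in the controls, against 1.28, 1.09 and 2.05 in the knockout (-0.31, SE 0.34). Both overlapped between groups. Of 34 listed neighbours on that part of the chromosome, 7 were tested in a row of their own and limma called 0 of them, with 2 at an unadjusted p below 0.05. Their median log2 fold change was 0.10, and they ran from CTU1 to the zinc finger gene ZNF175 (0.62, adjusted p = 0.165 by limma). The 7 member genes lie on the minus strand, and GENCODE 29 places antisense transcripts over each of them but KLK11. Since use of strand is not stated, reads of a member and of its antisense partner cannot be told apart. KLK8 and KLK9 are also overlapped by 1 protein-coding gene on their own strand, AC011473.4, whose reads strand would not set apart.

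**Figure D3:**
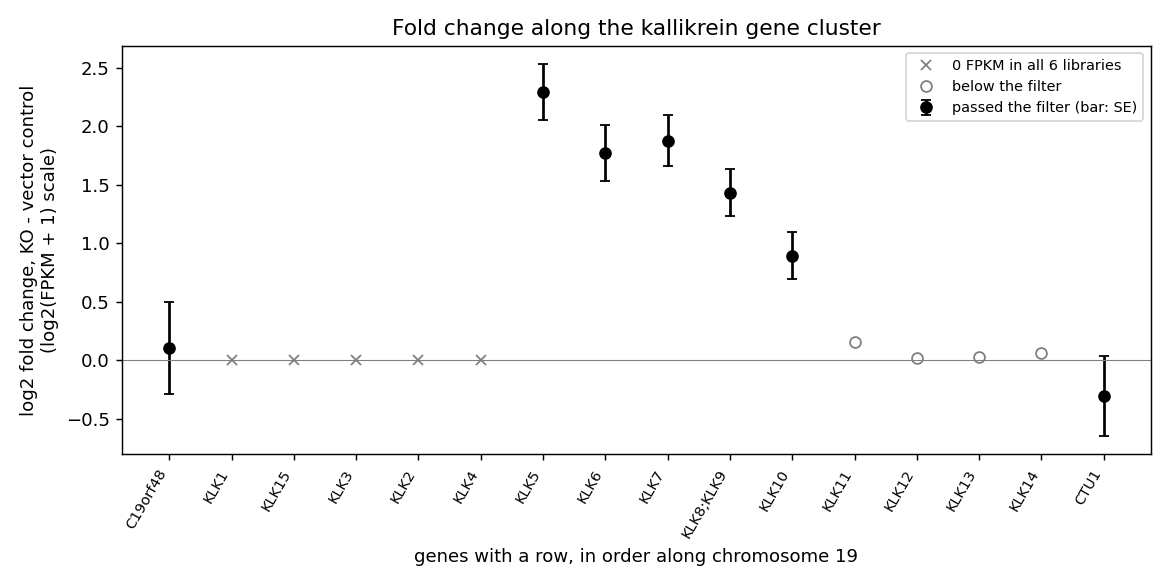
Log2 fold change, KO minus vector control, on the log2(FPKM + 1) scale (vertical axis) for genes in order along chromosome 19 (horizontal axis), filled with SE where the row passed the filter, open where it did not, and crosses where all 6 libraries were at 0. The values of KLK5 (2.29) to KLK10 (0.89) lie above 0, and C19orf48 (0.10) and CTU1 (-0.31), which flank the cluster, lie within 1 SE of 0.

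The partners of the kallikreins were described from lists of other genes: inhibitors, activating proteases, receptors and substrates, keratinocyte differentiation genes, nuclear receptors and other proteases of the trypsin fold. With the neighbours above, 36 rows of these lists were tested under 1 symbol, and limma called 3 of them, the desmosomal cadherin gene DSG2, the transcription factor gene KLF4 and the protease gene PRSS35, beside 1.35% of all rows.

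Inhibitors of kallikreins were mostly near 0. SPINK5, whose product LEKTI inhibits KLK5 and KLK7, was listed at 0 in all 6 libraries, and SPINT1, a membrane inhibitor of trypsin-like proteases, reached at most 0.12 FPKM. SPINT2, its relative, lay in a joined row with C19orf33 at 1.76 to 2.44 FPKM in the controls, against 1.67 to 2.87 in the knockout. The joined row of SERPINA3, SERPINA4 and SERPINA5 did not pass the filter. That row stood at 0.81, 1.98 and 1.80 FPKM in the controls, against 0.01, 0.55 and 0.41 in the knockout. Of 14 listed inhibitors 1 was tested in a row of its own, SERPINB6, an intracellular serpin, and limma did not call it. It stood at 3.84, 4.40 and 5.52 FPKM in the controls, against 6.98, 6.68 and 5.24 in the knockout, which overlap (log2 difference 0.39, SE 0.18, adjusted p = 0.322).

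The proteases that can act upstream of kallikreins gave 2 tested rows of 15 listed, and limma called 0 of them, with 1 at an unadjusted p below 0.05. PLAU, the urokinase gene, stood at 37.96, 131.05 and 128.24 FPKM in the controls, against 36.94, 19.81 and 20.86 in the knockout. Vector control 1 lay next to KO 1, far below the other vector controls (log2 difference -1.76, SE 0.50, adjusted p = 0.158). Without vector control 1 the difference was -2.34 and PLAU was called, as were 1329 of all 9624 rows, against 130 in the main fit. CTSC, a lysosomal dipeptidyl peptidase gene, had a difference of -0.30 (adjusted p = 0.498). ST14, which encodes the membrane protease matriptase, reached at most 0.47 FPKM and PRSS8 (prostasin) at most 0.29.

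Of 24 listed receptors and substrates 7 were tested in a row of their own, and limma called 1 lower and 0 higher. L1CAM was tested in a joined row that was not called (log2 difference 0.22, adjusted p = 0.548). DSG2, a desmosomal cadherin, fell from 7.13, 6.39 and 6.41 FPKM to 0.89, 1.77 and 2.22 (log2 difference -1.57, SE 0.22, adjusted p = 0.0248). Its call was lost without KO 2, KO 3, vector control 2 or vector control 3, each left out in turn, where the difference ran from -1.74 to -1.60. Calls over the whole table were also few in those fits, at 29, 25, 39 and 39. F2RL1, the gene of PAR2, stood at 36.11, 43.60 and 39.45 FPKM in the controls, against 17.82, 8.10 and 5.25 in the knockout. The groups did not overlap, and the difference of -1.99 (SE 0.37) did not pass (adjusted p = 0.0587 by limma). It was called without KO 1 (-2.43), the highest knockout library, without vector control 1 (-2.05) and under robust limma with array weights (-2.42). Over all 9624 rows these fits called 121, 1329 and 4020, against 130 in the main fit.

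F2R, the gene of the thrombin receptor PAR1, was the most abundant of the receptors, at 147.72, 155.81 and 151.33 FPKM in the controls, against 121.55, 89.56 and 89.31 in the knockout (log2 difference -0.61, adjusted p = 0.149 by limma). F2RL2, the gene of PAR3, had values on the other side, at 2.14, 1.46 and 2.08 in the controls, against 2.32, 7.26 and 8.56 in the knockout (1.15, adjusted p = 0.209). KO 1 lay just above the controls for F2RL2, and the difference was 1.63 and called without that library. F2RL3 was listed at 0 throughout, and CDH1, an epithelial cadherin that kallikreins can cut, was at or near 0. The median log2 fold change of the 7 own rows was -0.61, beside 0.08 over all rows.

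Keratinocyte genes, with which KLK5 and KLK7 are expressed in skin, were largely at 0. Of 40 listed genes 26 were listed at 0 in all 6 libraries and 5 were tested. The only call was KLF4, a transcription factor of epithelial differentiation, which fell from 1.68, 3.26 and 2.66 FPKM to 0.70, 0.31 and 0.59 (log2 difference -1.19, SE 0.21, adjusted p = 0.0484 by limma). It passed the filter through the controls alone, so it had to differ. Its call was lost without each library except vector control 1, and also with a pseudocount of 0.1, without the filter, with median scaling and without the trend. With those libraries left out in turn, calls over the whole table ran from 25 to 121, against 130 in the main fit. CNFN, the cornified envelope gene cornifelin, had the highest difference of the list at 0.71 (adjusted p = 0.382) and was not called. It was 0.37 without KO 1, the highest library at 5.81 FPKM, and 0.36 without vector control 1, the lowest at 0.62. TP63, which encodes the master factor of squamous epithelia, was high in KO 1 alone, at 9.79 FPKM against 2.60 to 3.48 in the other libraries.

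As a check for keratinocyte-like cells, 8 markers were read as a list. KRT5, KRT14, KRT1, IVL, DSG1 and DSG3 were at 0 in all 6 libraries, and the sum of the list was 5.34 to 6.10 FPKM in the controls, against 5.15 to 11.13 in the knockout. Of the epithelial markers 3 were tested in a row of their own and of the mesenchymal markers 4, and limma called 0 in each list, with 1 and 2 at an unadjusted p below 0.05. Of 2 more epithelial markers in tested joined rows 0 were called, and the row of KRT8 with KRT78 had a difference of -0.92. KRT18 did not overlap between groups (58.0, 28.78 and 35.53 FPKM in KO 1 to 3, against 70.41 to 79.42 in the controls), and whether this has a part in the kallikrein values was not tested. Endothelial markers (4 genes) summed to at most 0.34 FPKM and acinar markers to at most 0.43. Of 8 leukocyte markers 2 were tested in a row of their own and called in opposite directions: LYZ was 0 in the 3 controls and 1.45, 1.83 and 1.20 FPKM in KO 1 to 3, whereas HLA-DRA was 1.29, 3.72 and 3.86 FPKM in vector controls 1 to 3 and 0 in KO 1 to 3. Each passed the filter through 1 group alone, LYZ through the KO libraries and HLA-DRA through the controls, so each had to differ. Nothing is read from these calls. PTPRC, the pan-leukocyte gene, was listed at 0 in all 6.

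**Figure D4:**
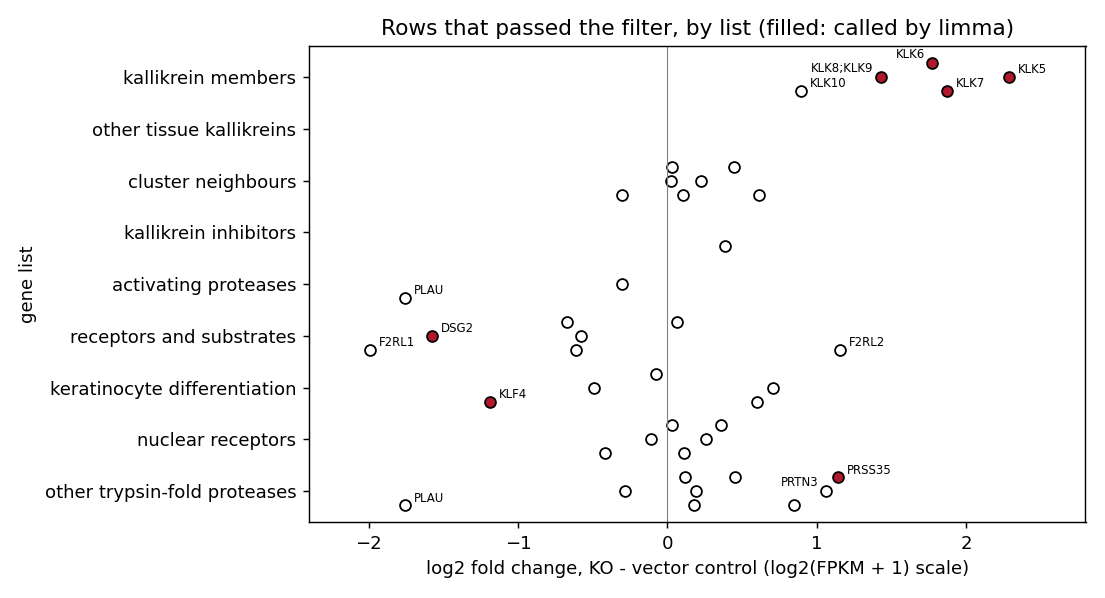
Log2 fold change, KO minus vector control, on the log2(FPKM + 1) scale (horizontal axis) of each row that passed the filter, by gene list (vertical axis), filled where limma called the row. Outside the kallikreins, filled points are DSG2 (-1.57), KLF4 (-1.19) and PRSS35 (1.14), and the list of other tissue kallikreins holds no tested row.

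Nuclear receptors, through which steroid and retinoid hormones are known to regulate kallikrein genes in other tissues, gave 6 tested rows of 15 listed and 0 calls by limma, with 0 at an unadjusted p below 0.05. NR3C1, the glucocorticoid receptor gene, stood at 14.07 to 16.25 FPKM in the controls, against 15.12 to 16.43 in the knockout (log2 difference 0.03, SE 0.14, adjusted p = 0.935). The range of the list ran from THRA (-0.42) to RXRA (0.36), and THRA was low in vector control 1, KO 2 and KO 3 and high in the other 3 libraries. VDR, the vitamin D receptor gene, was below the filter, at 0.47 to 0.86 FPKM in the controls, against 0.31 to 0.40 in the knockout.

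Other proteases with the trypsin fold gave 9 tested rows of their own from 70 listed, with a median log2 fold change of 0.19. Limma called PRSS35, the gene of a secreted protease-like protein, which rose from 0.65, 0.77 and 0.77 FPKM to 2.33, 3.05 and 3.14 (log2 difference 1.14, SE 0.15, adjusted p = 0.0179 by limma). It passed the filter through the KO libraries alone, so it had to differ. Its call was lost without KO 2, KO 3, vector control 2 or vector control 3, with differences of 1.09 to 1.16. Those fits called 29, 25, 39 and 39 rows over the whole table, against 130 in the main fit. A further 6 lay in joined rows that were tested, and limma called 0 of those. The lowest of the own rows was PLAU, given above. An unadjusted p below 0.05 was reached by 4 of the 9, beside 1685 of all 9624 rows.

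The genes whose pattern over the 6 libraries was most like the mean of the 5 kallikrein rows were KIAA0895L (Pearson r = 0.998), the retinaldehyde dehydrogenase gene ALDH1A1 (0.996), the zinc transporter gene SLC30A4 (0.995), the alpha-kinase gene ALPK1 (0.994) and the interleukin-13 receptor gene IL13RA1 (0.991). The most opposite were MCL1, an inhibitor of apoptosis (-0.998), the pregnancy-specific glycoprotein gene PSG7 (-0.996) and the nuclear receptor gene NR5A2 (-0.996). These r values are over 6 libraries in 2 groups, so any gene that differs between the groups with little spread scores high: 131 other rows had r of 0.95 or more. The size of the difference was not part of the measure. IL13RA1 differed by 0.36 on the log2 scale and KIAA0895L by 0.38, against 1.59 for ALDH1A1 and -2.28 for NR5A2. ALDH1A1 stood at 122.27, 164.05 and 171.20 FPKM in the controls, against 436.34, 468.29 and 466.28 in the knockout, with vector control 1 the lowest of the 6 as in KLK6 and KLK7.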

How the data were processed

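Total RNA libraries of MIA PaCa-2 cells were sequenced by the authors, who deposited 1 table of FPKM, a column per library, rounded to 2 decimals. HISAT2, cutadapt, FastQC and build hg19 are named per the submitters' processing notes. Tool versions, how FPKM was computed, the annotation and strand use are not given there. Rows that join overlapping genes (990) were kept as 1 unit. No whole-read step was found among low values (best concentration 0.391, where exact multiples give 1), so depth is unknown and the number of libraries limits the precision.

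Rows with at least 1 FPKM in at least 3 libraries were tested on log2(FPKM + 1) with limma 3.58.1 in R 4.3.3 (eBayes with trend, two-sided, Benjamini-Hochberg), KO against vector control, and tested on simulated data first. The kallikrein members and the 8 other gene lists and 6 marker lists were chosen with earlier results of these data known. Named were all kallikrein rows, every called row of the lists, the highest and lowest row of each list, 12 preset partner genes, the nearest tested neighbours and the rows most like the kallikrein mean. A further few (CTSC, F2RL3, L1CAM, KRT8, SERPINA3 and TP63 among them) were named after their values were seen. Alternatives were other pseudocounts, filters, scalings and fits, the replicate number as a block, and each library left out in turn. Promoter windows came from RefSeq (GRCh38.p14) and gene order and overlaps from GENCODE 29 on GRCh38, while the values rest on hg19.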

Additional observations from a re-analysis of the deposited data

How the results depend on the processing

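Each kallikrein row that passed the filter stayed higher in the KO libraries in each of the 15 alternatives (14 for the joined row and KLK10, which a filter at 5 FPKM removed), from 2.14 to 2.50 on the log2 scale for KLK5, 1.51 to 1.95 for KLK6, 1.63 to 2.17 for KLK7, 1.25 to 2.11 for the joined KLK8 and KLK9 row and 0.73 to 1.58 for KLK10. The KO libraries lay above the controls without overlap in each row, so another pseudocount or leaving out a library could not reverse the direction. The rows were also chosen from this contrast, so nothing is read from the shared direction. The median of the rows was 2.11 with a pseudocount of 0.1, and 1.51 to 1.95 with 1 library left out. KLK10 was called under robust limma with array weights alone. The number of genes called over the table was 59 when the filter was 5 FPKM, 241 with none, 4020 under robust limma with array weights, and 25 (without KO 3) to 1329 (without vector control 1) with 1 library left out. Of the kallikrein rows 0 to 4, and of the list rows 0 to 7, were called with 1 library left out. Of the list rows 1 was called with the 5 FPKM filter and 18 under robust limma with array weights. With the replicate number as a block 7 genes, 0 kallikrein rows and 0 list rows were called by limma. In that fit 5 kallikrein rows, 12 list rows and 1145 of all 9624 rows had an unadjusted p below 0.05. For the kallikrein rows nothing is read from this, since they were chosen from this contrast. Deviations of same-numbered libraries from their group means correlated at -0.374, -0.153 and -0.264. With 3 libraries per group these deviations are tied to each other, so whether the replicate numbers pair the libraries cannot be told from them. Deviations of KO 1 correlated at 0.306 and 0.301 with vector control 2 and 3. Those of vector control 1 correlated at 0.183 and 0.324 with KO 2 and KO 3. KO 2 with vector control 3 and KO 3 with vector control 2 gave -0.145 and -0.263. The cause of this pattern and of the shifts in the counts was not tested. Depth is unknown, so what it limits among the members near 0 cannot be stated.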
